A study of Rattus norvegicus with 18 samples.

Results

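The comparison described here set kidneys of rats given adenine against kidneys of untreated rats across all measured genes and gene families. A gene entered if its FPKM, the number of fragments scaled to gene length and to library size, reached 1 in 6 or more of all 18 libraries, which kept 13851 of 32116 genes, 12604 of them protein coding. Of these, 439 were under 1 in all untreated libraries and 133 under 1 in all adenine libraries. The 439 passed the filter only through libraries of adenine-treated rats, and each tested gene below with all untreated values under 1 FPKM is one of them. RNA was sequenced from whole kidneys in 6 libraries per group. The untreated group (NC) had no treatment, and rats of the adenine group (CKD) had a daily dose of adenine of 100 mg per kg. A further 6 libraries came from rats that had the same adenine and SZ-A, 300 mg per kg daily, and they entered only the filter and the shared estimate of spread. The sources used here do not give strain, sex, age or length of treatment, and the labels do not say that each library is a separate animal.

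Adenine taken in excess is oxidised by xanthine dehydrogenase to a poorly soluble product that forms crystals in kidney tubules, and the model is used for tubular injury that goes on to chronic disease. The healthy kidney cortex is mostly proximal tubule, a cell type with a dense brush border, many mitochondria and high activity of amino acid breakdown, fatty acid oxidation and solute uptake. Distal segments hold other specialists, among them the intercalated cells that secrete acid or base. Because whole tissue was sequenced, fewer cells of a type and less RNA per cell cannot be told apart in any value below.

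The kidney label held against its markers: the 8 kidney markers (among them Slc34a1, Umod and Aqp2) summed to 2846 to 3832 FPKM in NC and to 812 to 1650 in CKD, and 7 of the 8 were called lower. Recovered depth of the NC and CKD libraries ran from 15573105 (CKD 2) to 18531495 (CKD 1) reads. Transcripts of the mitochondrial chromosome took 14.7% to 24.1% of reads in NC and 5.86% to 16.0% in CKD. In CKD 2 and CKD 5 long genes read lower than in the other CKD libraries, with log2 slopes over gene length of -0.21 and -0.31 against -0.10 to 0.10, and CKD 5 also held the most ribosomal RNA (1741 ppm of reads, against 66 to 154 in NC). CKD 1 lay nearest to NC on the first principal component (8.94, against 34.5 to 84.0 for the other CKD libraries and -54.5 to -34.8 for NC). The part of these library features in the gene results was not tested beyond the values without CKD 2 and CKD 5 given below.

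Close to 1 in 2 of the tested genes changed. By limma on log2(FPKM + 1), 6973 genes, 50.3% of those tested, were called at an adjusted p under 0.05, with 3378 higher in CKD (24.4%) and 3595 lower (26%). The rises were the larger: 305 called genes rose by more than 2 on the log2 scale and 85 fell by more than 2. The filter could admit a gene silent in NC through CKD and SZ-A libraries alike. Under 1 FPKM were 439 tested genes in all NC libraries and 133 in all CKD libraries. The part of the filter in this asymmetry was not tested. The NC and CKD ranges did not overlap for 3664 genes (26.5%), of which 1973 were higher. Most genes named below were chosen with ranges apart as a condition, so ranges apart in them add no further result. The split of calls depends on scaling. The deposited scaling held the median gene near 0 (-0.04). With the FPKM sum of every library held fixed (TPM scaling) the median gene moved to 0.34 and 83.7% of the called genes were higher, and with plain library totals it moved to 0.25 and 77.6% were higher, against 48.4% as deposited. Each family count below is read beside 24.4% higher and 26% lower over all genes, and each count under TPM scaling beside 6591 higher and 1281 lower of 13851. Directions below are relative to the deposited scaling, and families whose median changes sign under another scaling are named as such.

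The share of falls was higher in the classes of abundant genes. Of 135 genes with a mean above 300 FPKM, 68 were lower and 30 higher, with a median log2 change of -0.55. Of 3468 genes with a mean under 3 FPKM, 689 were lower and 954 higher, with a median of 0.02. The filter admitted 439 genes under 1 FPKM in all NC libraries and 133 under 1 in all CKD libraries. The part of these genes in the counts of the low classes was not tested. Kap, the androgen-regulated protein of the proximal tubule, ran from 2539 to 5453 FPKM in NC (median 3934) and from 167 to 2736 in CKD (median 496), and only CKD 1 reached into the NC range. Hao2, a peroxisomal hydroxyacid oxidase, ran from 2999 to 4092 FPKM in NC (median 3468) and from 605 to 2495 in CKD (median 1200). Miox, which opens myo-inositol breakdown in the proximal tubule, ran from 2014 to 3110 FPKM in NC (median 2464) and from 318 to 1776 in CKD (median 643). These last 2 genes did not overlap between groups, and the log2 changes of the 3 were -2.89, -1.62 and -1.85 (adjusted p = 5.6e-05, 4.4e-05 and 0.00018). In the other direction, Mgp, the matrix Gla protein that inhibits calcification, rose from 66.5 to 150 FPKM in NC (median 90.7) to 652 to 2820 in CKD (median 1025), a log2 change of 3.49 ± 0.32 (SE). The CKD 5 value of Mgp, 2820 FPKM, stood apart from the 5 others. The 20 most abundant genes together held 41.8% of the FPKM sum in NC (SD 4.51, n = 6) and 27.4% in CKD (SD 5.49, n = 6), and more genes reached 1 FPKM in every CKD library (13139 to 13568) than in any NC library (12914 to 13105).

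**Figure D1:**
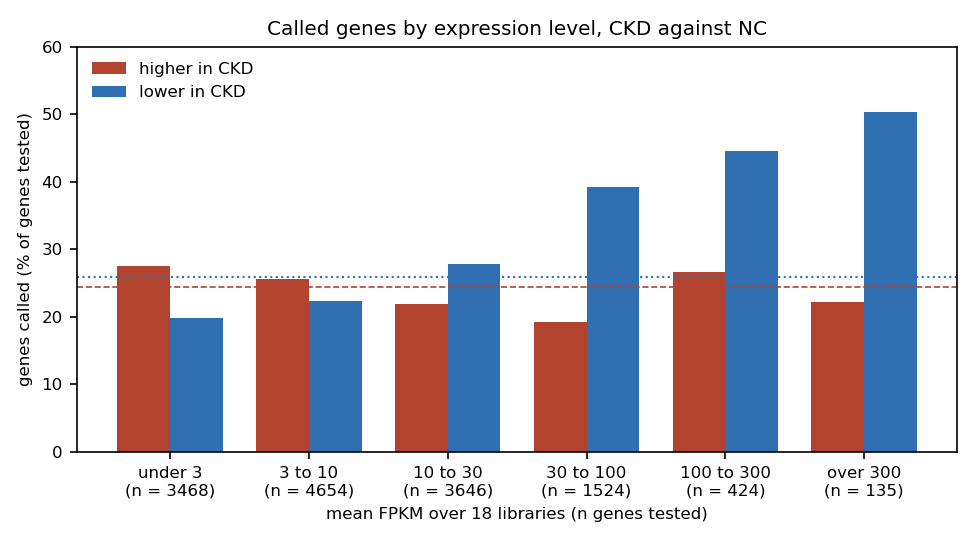
Percentage of tested genes called higher (red) or lower (blue) in CKD, by mean FPKM over the 18 libraries, with the number of genes under each class; dashed and dotted lines give the shares over all genes, 24.4% higher and 26% lower. The share lower climbs to 50.4% above 300 FPKM, while the share higher stays between 19.2% and 27.5%. The part of the low-value filter in the shares of the low classes was not tested.

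The CKD libraries were also less alike. Of 8491 genes with a mean of at least 5 FPKM, 83.8% had the larger log2 SD in CKD, with a median SD of 0.31 in CKD and 0.16 in NC. The SD in CKD was more than 2 times that in NC for 3713 genes, and the reverse held for 172.

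Among the genes of large change that belong to none of the families below were the following. Il19, a cytokine of the interleukin 10 group, ran from 0 to 0.24 FPKM in NC (median 0.06) and from 23.0 to 65.9 in CKD (median 37.6), a log2 change of 5.12 ± 0.31 (adjusted p = 2.4e-09). Among the falls, Sbspon, a secreted protein with a thrombospondin repeat, went from 13.5 to 21.4 FPKM in NC (median 17.01) to 0.60 to 3.75 in CKD (median 1.52), a log2 change of -2.85 ± 0.22 (adjusted p = 2.6e-08). In both genes every CKD library lay outside the NC range. Dnase1, a secreted endonuclease, fell from 85.6 to 359 FPKM (median 208) to 11.1 to 68.0 (median 42.5), by 2.57 on the log2 scale (adjusted p = 0.00018). Oxgr1, the receptor for 2-oxoglutarate on intercalated cells, fell from 8.32 to 18.6 FPKM (median 11.7) to 0.52 to 3.54 (median 0.95), by 2.53 (adjusted p = 2.5e-07). Mlc1, a membrane protein best known from astrocytes, fell from 1.56 to 17.03 FPKM (median 5.61) to 0 to 0.93 (median 0.28), by 2.41 (adjusted p = 2.4e-05).

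A total of 8 genes were off in NC and on in CKD (under 0.1 FPKM in all 6 NC libraries and at least 1 in all 6 CKD libraries), and no gene showed the reverse. Of these, 6 have symbols: the metalloproteinase Mmp7, the matrix protein Postn, the antimicrobial lectins Reg3b and Reg3g, the carboxylesterase Ces1a and the membrane protein Tmem59l. Mmp7, Reg3b and Reg3g were listed at 0 in all 6 NC libraries, while Mmp7 ran from 3.41 to 29.6 FPKM in CKD (median 10.8), Reg3b from 3.05 to 21.01 (median 5.27) and Reg3g from 2.10 to 8.30 (median 3.78). Ces1a ran from 1.54 to 4.61 FPKM in CKD (median 2.11), against at most 0.06 in NC. Reg3b and Reg3g are related genes of one family, so the split of reads between them is uncertain.

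Most tested genes of amino acid breakdown were lower. Of 24 tested genes of branched-chain amino acid breakdown, the steps that strip leucine, isoleucine and valine of nitrogen and burn their carbon in mitochondria, 23 were called lower and 1 higher (median log2 change -1.02, against -0.04 over all genes); under TPM scaling 15 were lower and 1 higher. The 1 that rose was Bcat1, the cytosolic aminotransferase at the first step (ENSRNOG00000015514, chromosome 4, 177964834 to 178046597, mRatBN7.2), which passed the filter only through libraries of adenine-treated rats. Bcat1 ran from 0.04 to 0.18 FPKM in NC (median 0.08) and from 3.62 to 14.6 in CKD (median 6.79), a log2 change of 2.96 ± 0.25 (SE, adjusted p = 6.3e-08), with all 6 CKD libraries above all NC libraries. Acadsb, the dehydrogenase of the isoleucine branch, fell from 28.0 to 43.8 FPKM (median 40.7) to 9.61 to 21.9 (median 14.9), by 1.34 (adjusted p = 1.8e-06), and Bckdha, a subunit of the committed branched-chain dehydrogenase, from a mean of 26.9 to 12.5.

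Serine, glycine and one-carbon metabolism, which passes single carbons to purines, thymidylate and methionine, also held mostly lower genes. Of 31 tested genes, 25 were lower and 2 higher (median -0.91; 18 and 4 under TPM scaling). Bhmt2, a homocysteine methyltransferase, fell from 223 to 324 FPKM in NC (median 253) to 41.3 to 153 in CKD (median 70.7), by 1.77 ± 0.22 (adjusted p = 4.4e-06). Aldh1l1, the folate dehydrogenase of the cytosol, fell from a mean of 53.5 to 20.7 FPKM, and Gldc, the glycine decarboxylase, from 52.8 to 13.7. The 2 genes that rose were the mitochondrial folate enzymes Mthfd2 (0.78 ± 0.17 to 3.24 ± 0.93 FPKM, SD, n = 6) and Mthfd1l (0.37 ± 0.17 to 2.55 ± 0.76), both of which passed the filter only through libraries of adenine-treated rats.

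Tyrosine, proline, lysine and histidine breakdown gave 19 lower and 3 higher of 23 tested genes (median -0.99; 11 and 3 under TPM scaling). Hgd, the homogentisate dioxygenase of tyrosine breakdown, fell from 165 to 273 FPKM (median 253) to 43.4 to 146 (median 72.0), by 1.70 ± 0.23 (adjusted p = 9.4e-06). Dao, the peroxisomal D-amino acid oxidase, fell from 895 to 1029 FPKM (median 976) to 224 to 650 (median 354), by 1.41 ± 0.20. Among those that rose, Aldh18a1 (1.82 to 5.89 FPKM on average) makes proline rather than breaking it down. Every CKD library lay below every NC library for Bhmt2, Hgd and Dao.

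Most carriers and activating enzymes that feed mitochondria and peroxisomes were lower. Of 34 tested mitochondrial carriers of the SLC25 family, which move metabolites across the inner membrane, 24 were lower and 1 higher (median -0.56; 13 and 5 under TPM scaling). The one that rose was Slc25a24, a calcium-regulated exchanger of ATP-Mg and phosphate, from 1.96 to 3.21 FPKM in NC (median 2.40) to 9.56 to 15.8 in CKD (median 13.8), a log2 change of 2.02 ± 0.14 (SE, adjusted p = 8.0e-09). Its paralog Slc25a25, which carries the same substrates, went the other way, from 34.4 to 158 FPKM (median 63.9) to 7.34 to 37.1 (median 16.2), a log2 change of -2.10 ± 0.35, with CKD 1 alone inside the NC range. Slc25a45 (27.9 to 11.6 FPKM on average) and Slc25a35 (12.9 to 4.16) fell with ranges apart. Of 21 acyl-CoA synthetases and thioesterases, which charge and discharge fatty acids with coenzyme A, 16 were lower and 1 higher (median -0.85; 9 and 3 under TPM scaling). Acsl1 fell from a mean of 87.1 to 29.8 FPKM and Acsm2, a medium-chain synthetase, from 654 to 292. Acsl5, a long-chain synthetase of the outer mitochondrial membrane and endoplasmic reticulum, rose from 5.71 to 8.15 FPKM (median 6.91) to 14.3 to 18.5 (median 17.01), by 1.15 ± 0.09 (adjusted p = 3.8e-08). Of 16 peroxins, which build peroxisomes, 10 were lower and none higher (median -0.42, and -0.01 under TPM scaling with 3 lower and 3 higher).

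Oxidoreductases of aldehydes, steroids and retinol split. Of 15 aldehyde dehydrogenases 9 were lower and 3 higher (median -0.83), and of 26 hydroxysteroid and retinol dehydrogenases 13 were lower and 4 higher (median -0.45, with 8 and 8 under TPM scaling). Aldh1a2, which makes retinoic acid, rose from 1.52 to 3.24 FPKM in NC (median 2.36) to 5.76 to 13.4 in CKD (median 7.81), by 1.49 ± 0.18 (adjusted p = 2.6e-06). Rdh10, which supplies its retinal substrate, rose from 21.1 to 33.7 FPKM (median 25.5) to 39.9 to 112 (median 71.9), by 1.42 ± 0.22. Rdh16, which oxidises retinol and steroids in liver and kidney, fell from 21.7 to 44.2 FPKM (median 32.5) to 1.52 to 18.5 (median 5.90), by 2.28 ± 0.36. Hsd3b7, of bile acid synthesis, rose from a mean of 3.28 to 13.01 FPKM, and Hsd17b14 fell from 8.67 to 2.31. Of 13 aldo-keto reductases 8 were lower and 2 higher (median -0.88), with Akr1b1, the aldose reductase that makes sorbitol, rising from 9.28 to 25.6 FPKM, and the abundant Akr1a1 at 639 against 433 FPKM, a fall that did not pass the test under TPM scaling (log2 change -0.16). Of 7 carboxylesterases, 3 were lower, among them Ces2h (24.2 to 8.82 FPKM), and 1, Ces1a, was higher.

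Enzymes of thyroid hormone activation and inactivation moved in opposite directions. Dio1, the selenoenzyme that turns thyroxine into active triiodothyronine in kidney and liver (chromosome 5, 122074279 to 122090970), ran from 131 to 201 FPKM in NC (median 177) and from 19.7 to 83.1 in CKD (median 41.4), a log2 change of -2.07 ± 0.29 (SE, adjusted p = 1.3e-05). Dio3, which inactivates both hormones and is typical of fetal tissue and placenta (chromosome 6, 129285749 to 129286660), ran from 0 to 0.22 FPKM in NC (median 0.04) and from 4.27 to 25.3 in CKD (median 11.2), a log2 change of 3.42 ± 0.39 (adjusted p = 1.5e-06). The groups did not overlap for either gene. Thrb, the thyroid hormone receptor beta, fell from 12.6 to 18.3 FPKM (median 16.4) to 2.87 to 9.12 (median 6.52), by 1.29 ± 0.19. Among the 25 tested selenoproteins and selenium handling genes to which both deiodinases belong, 11 were lower and 6 higher (median -0.24, and 0.19 under TPM scaling; 3 were higher without CKD 2 and CKD 5). Gpx2, the glutathione peroxidase of gut epithelium, rose from 7.39 to 17.7 FPKM (median 14.4) to 77.2 to 143 (median 100), by 2.90 ± 0.22 (adjusted p = 2.3e-08), and Sepsecs, which makes selenocysteine on its transfer RNA, fell from a mean of 19.7 to 9.30 FPKM.

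Carbonic anhydrases moved in both directions. These enzymes interconvert carbon dioxide and bicarbonate; 6 of 12 tested members were lower and 2 higher (median -0.44, and -0.004 under TPM scaling with 2 lower and 3 higher). Ca12, the membrane enzyme of the distal nephron, fell from 319 to 439 FPKM (median 375) to 49.4 to 249 (median 130), by 1.62 ± 0.29. The cytosolic Ca3, abundant in muscle and fat, rose from 0.22 to 0.43 FPKM (median 0.32) to 8.61 to 57.3 (median 16.96), by 3.86 ± 0.35 (adjusted p = 1.4e-07), and Ca13 from a mean of 0.75 to 3.83. The 4 skeletal muscle markers summed to 0.11 to 0.38 FPKM in NC (median 0.28) and 0.07 to 1.30 in CKD (median 0.71), with Ckm and Myh4 under 0.1 in all 12 libraries. The 4 adipocyte markers summed to 9.74 to 40.2 FPKM in NC and 9.36 to 17.1 in CKD, while Cfd and Fabp4, also abundant in fat, rose by 3.53 and 3.30 on the log2 scale. The part of these cells in the rise of Ca3 was not tested.

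**Figure D2:**
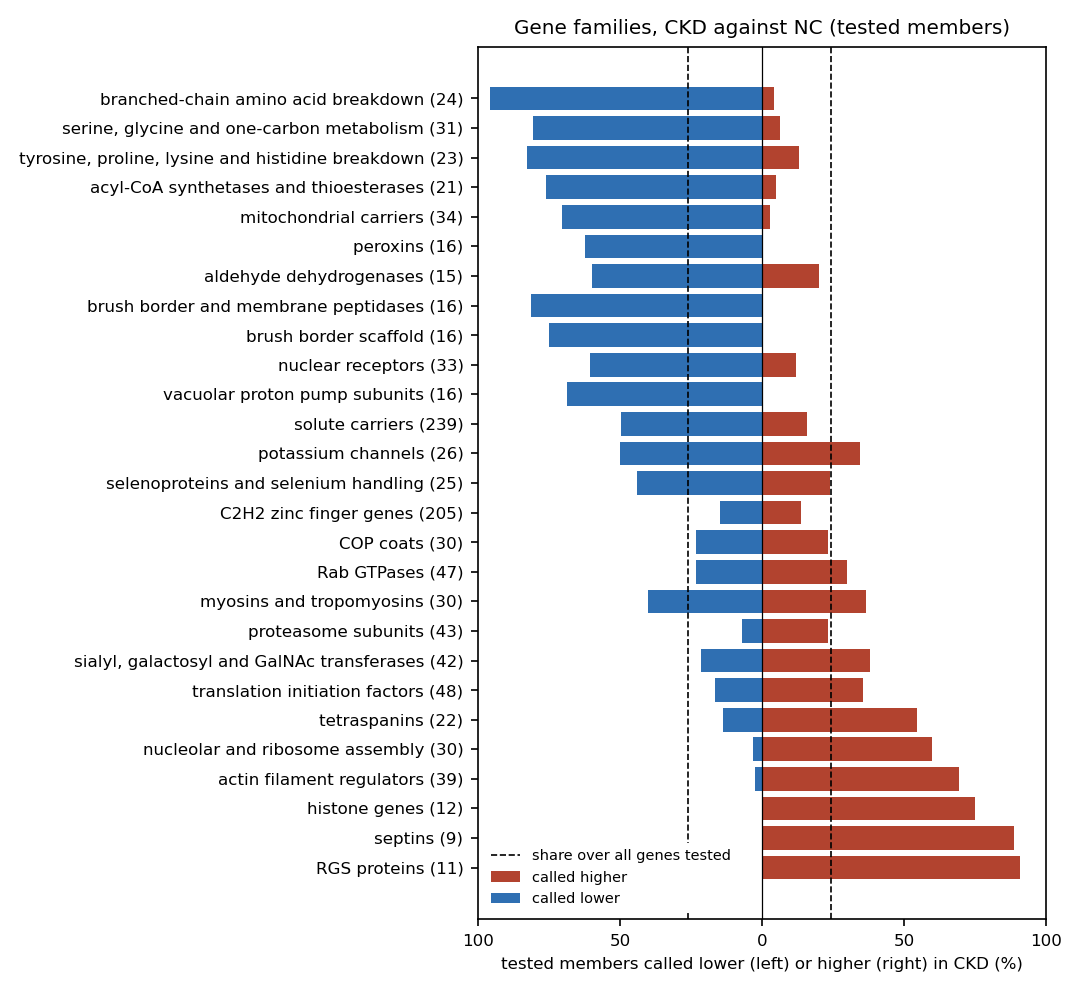
Percentage of the tested members of 27 gene families called lower (bars to the left) or higher (bars to the right) in CKD, with the number tested in parentheses; dashed lines mark 26% lower and 24.4% higher over all genes. Metabolic and brush border families lie to the left, cytoskeletal, nucleolar and RGS families to the right, COP coats and Rab GTPases near the background on both sides, and C2H2 zinc finger genes under it on both.

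Most tested genes of the lists for the brush border, the microvillar surface of the proximal tubule, were lower. The peptidase list also holds peptidases not tied to the brush border, Pm20d1 among them. None of its 16 tested members rose and 13 fell (median -1.29, with 8 lower and 1 higher under TPM scaling). None of the 16 scaffold genes rose while 12 fell (median -0.54, with 4 lower and 3 higher under TPM scaling). Pm20d1, which conjugates fatty acids to amino acids, went from 56.7 to 96.3 FPKM (median 74.5) to 9.80 to 40.3 (median 18.5), a log2 change of -1.91 ± 0.22 (adjusted p = 2.0e-06). Anpep, aminopeptidase N, went from 219 to 420 FPKM (median 352) to 68.2 to 181 (median 130), a log2 change of -1.44 ± 0.22. Cdhr2, a protocadherin of the links between microvillus tips, fell from a mean of 27.0 to 10.8 FPKM, Baiap2l2 from 30.7 to 13.5, and Pdzk1, which anchors transporters under the membrane, from 524 to 248. None of these genes overlapped between groups, which the rule for named genes required of all but Pdzk1.

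Promoter windows were read for 17 runs of letters, among them those of HNF4, a factor known to drive such genes. RefSeq promoters of the rat build GRCr8, 250 bases before to 50 after each gene start, matched 8762 tested genes by symbol. The HNF4 letters CAAAGTCCA, on either strand, stood in 0.365% of all these windows, in 1.36% of the windows of genes called lower by more than 1 (7 of 514) and in 0.371% of those called higher by more than 1 (3 of 808). The window of Pdzk1 shows these letters in capitals, with 26 bases of context on each side, on the strand of the gene.
Pdzk1 promoter, GRCr8 chr2:187064960-187065020, plus strand, HNF4 letters: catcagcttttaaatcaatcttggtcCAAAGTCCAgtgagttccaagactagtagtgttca
A match is a run of letters and not a bound site, and most genes that fell did not hold this run in this window. HNF4 letters were not alone in this pattern. The HNF1 letters GTTAATNAT (N for any base) stood in 0.445% of all windows. They stood in 1.56% of those called lower by more than 1 (8 of 514) and 0.619% of those called higher by more than 1 (5 of 808). The shares of the other runs are given only in part.

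Several transcription factors of the tubule were lower. Of 33 tested nuclear receptors, the ligand-activated factors that include the PPARs and HNF4, 20 were lower and 4 higher (median -0.59; 10 and 8 under TPM scaling). Hnf4a, a master regulator of proximal tubule genes (chromosome 3, 152186787 to 152248320), ran from 184 to 205 FPKM in NC (median 189) and from 38.5 to 132 in CKD (median 76.8), a log2 change of -1.34 ± 0.20 (adjusted p = 2.1e-05). Ppara, which drives fatty acid oxidation genes, ran from 8.29 to 16.9 FPKM in NC (median 12.6) and from 0.55 to 5.11 in CKD (median 2.42), a log2 change of -2.08 ± 0.39 (adjusted p = 0.00023). Both were lower in 6 of 6 CKD libraries than in any NC library. Esr1, the oestrogen receptor alpha, fell from a mean of 6.07 to 1.20 FPKM, Esrrb from 4.54 to 1.01, and the mineralocorticoid receptor Nr3c2 from 7.65 to 2.40. Pparg, the PPAR of fat cells and macrophages, was one of the 4 that rose (0.51 to 1.33 FPKM).

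The KLF, SOX and ETS factors held members that rose and members that fell. Of 17 tested KLF and SP factors, 6 were higher and 3 lower. Klf5, common in proliferating epithelium, rose from 0.47 to 0.81 FPKM (median 0.66) to 3.32 to 8.82 (median 6.72), by 2.17 ± 0.19 (adjusted p = 1.2e-07). Klf6 rose from a mean of 8.51 to 35.5 FPKM, while Klf15 went from 30.7 to 13.2 and Klf9 from 45.6 to 21.6 (the fall of Klf9 did not pass the test under TPM scaling, log2 change -0.67). Of 8 SOX factors 4 were higher and 1 lower. Sox11, of the developing kidney and nervous system, ran from 0.03 to 0.59 FPKM in NC (median 0.03) and from 1.14 to 9.73 in CKD (median 6.03), by 2.28 ± 0.30 (adjusted p = 8.1e-06), and Sox4 rose from a mean of 2.57 to 13.1 FPKM. Sox6 went from 4.36 to 1.84 FPKM, which did not pass the test under TPM scaling (-0.66). Of 18 ETS factors 7 were higher and 2 lower. Spi1, which encodes PU.1, the factor of macrophages and B cells, rose from 1.66 to 3.46 FPKM (median 2.68) to 10.5 to 35.8 (median 17.6), by 2.38 ± 0.25 (adjusted p = 5.0e-07), and the epithelial Elf3 from a mean of 16.0 to 59.6. Forkhead factors gave 6 lower and 1 higher of 18 (median -0.26, and 0.13 under TPM scaling), led by Foxi1, the master factor of intercalated cells, from 13.3 to 30.7 FPKM (median 26.9) to 5.37 to 8.46 (median 6.96), a log2 change of -1.61 ± 0.21. The HOX genes, 2 higher and 4 lower of 25 tested (7 lower without CKD 2), and the C2H2 zinc finger genes, 28 higher and 30 lower of 205, had 24.0% and 28.3% of members called, beside 50.3% of all genes. Under TPM scaling 83 zinc finger genes were higher and 3 lower, and their median changed sign (-0.06 as deposited, 0.27 under TPM scaling).

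More solute carriers fell than rose, and single channels rose. Of 239 tested solute carriers 119 were lower and 38 higher (median -0.39; 77 and 74 under TPM scaling). Slc4a1, the chloride-bicarbonate exchanger of acid-secreting intercalated cells and red cells, fell from 29.8 to 63.3 FPKM (median 40.7) to 1.20 to 7.30 (median 3.42), by 3.39 ± 0.28 (adjusted p = 4.5e-08). The one red cell marker found summed to 210 to 535 FPKM in NC and 41.4 to 158 in CKD, and its part in the fall of Slc4a1 was not tested. The riboflavin carrier Slc52a3 fell from a mean of 10.7 to 2.27 FPKM, and Slc66a3, a membrane protein of the PQ-loop type, rose from 2.13 to 16.8. Of 16 vacuolar proton pump subunits 11 were lower and none higher (median -0.43, and 0.01 under TPM scaling with 6 lower and 3 higher). Subunits typical of intercalated cells were among them: Atp6v1b1 fell from 48.9 to 113 FPKM (median 80.9) to 11.3 to 34.8 (median 17.8), a log2 change of -2.004 ± 0.23, and Atp6v1c2 from a mean of 22.9 to 4.99.

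Potassium channels gave 13 lower and 9 higher of 26 tested (median -0.41), and 3 of the 26 passed the filter only through libraries of adenine-treated rats. Kcnj10, the basolateral channel of the distal convoluted tubule, ran from 8.73 to 17.1 FPKM in NC (median 13.5) and from 0.73 to 3.74 in CKD (median 2.07), a log2 change of -2.19 ± 0.26 (adjusted p = 1.9e-06). Kcnn4, the calcium-activated channel of lymphocytes, macrophages and fibroblasts, ran from 0.28 to 0.66 FPKM in NC (median 0.51) and from 5.93 to 22.3 in CKD (median 9.84), a log2 change of 2.96 ± 0.23 (adjusted p = 3.0e-08). Kcne5, a regulatory subunit, rose from a mean of 0.23 to 6.38 FPKM. Among 32 calcium channels, pumps and TRP channels, 10 were higher and 12 lower (median -0.07, and 0.32 under TPM scaling). Trpv6, a calcium entry channel of epithelia, rose from 0.02 to 0.55 FPKM (median 0.31) to 4.09 to 9.37 (median 6.47), by 2.56 ± 0.16 (adjusted p = 2.6e-09), and Trpv2 from a mean of 0.58 to 8.90, while Trpm6, the magnesium channel, fell from 5.84 to 2.54. Of 23 chloride channels 11 were lower and 5 higher (median -0.22, and 0.23 under TPM scaling; 3 were higher without CKD 2 and CKD 5), with Clic1 rising from 33.7 to 82.9. Zinc carriers and metallothioneins were mixed, with 5 higher and 6 lower of 22 (median -0.12, and 0.30 under TPM scaling): the importer Slc39a8 fell from 35.3 to 9.13 FPKM and the exporter Slc30a2 from 26.8 to 8.54, while the importers Slc39a1 (31.8 to 69.5) and Slc39a6 (3.17 to 9.13) rose.

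**Figure D3:**
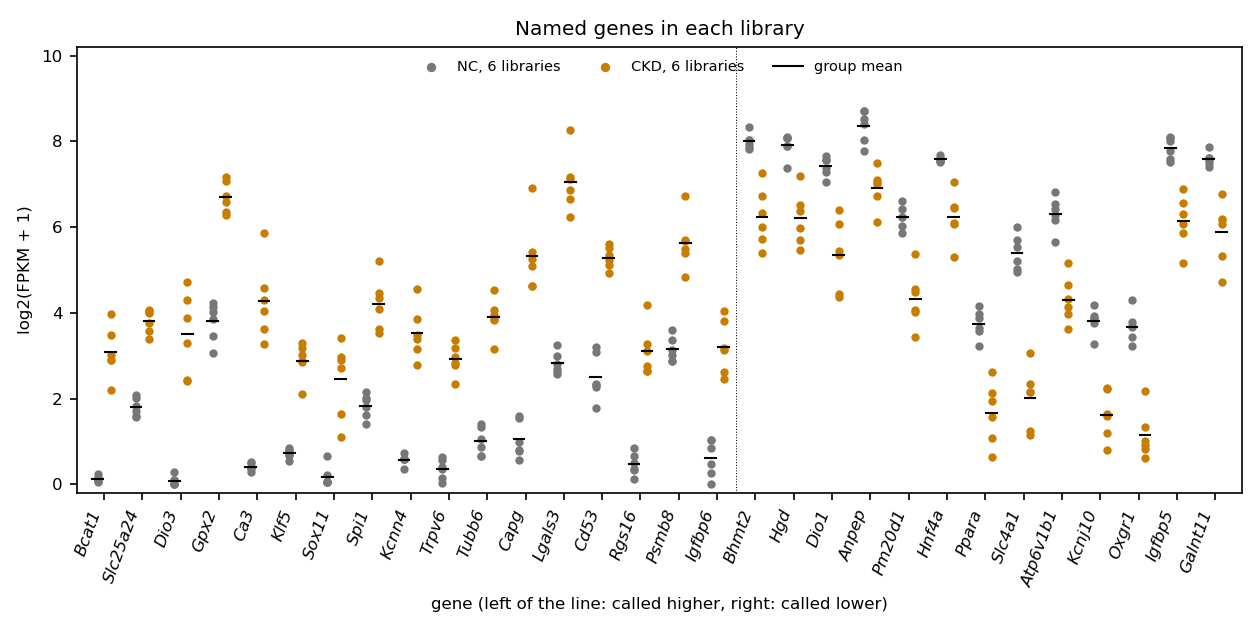
Expression of 30 named genes in each of the 6 NC (grey) and 6 CKD (orange) libraries as log2(FPKM + 1), with black bars at group means; genes called higher stand to the left of the dotted line. The 2 groups do not overlap in any of the 30 genes, but most were chosen with ranges apart as a condition. Over all genes tested the ranges were apart in 26.5%. The genes run from Bcat1, at most 0.18 FPKM in NC and at least 3.62 in CKD, to Galnt11, at least 169 in NC and at most 108 in CKD.

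Most tested genes of actin control rose. Of 39 tested actin filament regulators, which nucleate, cap, bundle and sever filaments, 27 were higher and 1 lower (median 0.55), and of 9 septins 8 were higher and none lower (median 0.68). Capg, a capping protein of macrophages, ran from 0.49 to 2.02 FPKM in NC (median 0.85) and from 23.8 to 119 in CKD (median 35.1), a log2 change of 4.28 ± 0.39 (adjusted p = 1.3e-07). Lcp1, the plastin of blood cells, rose from 6.996 to 14.7 FPKM (median 8.35) to 41.3 to 69.0 (median 59.4), by 2.46 ± 0.17, and Arpc1b, a subunit of the ARP2/3 nucleator, from a mean of 29.8 to 116. The 5 macrophage markers summed to 95.9 to 180 FPKM in NC and to 846 to 1692 in CKD, all 5 were called higher, and their part in the rise of these genes was not tested. The 1 regulator called lower was Fmnl1, a formin, at 20.7 against 15.4 FPKM, and its change was lost and took the other sign under TPM scaling (-0.41 as deposited, 0.02 under TPM scaling).

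Of 11 tubulins 5 were higher and none lower (median 0.11). Tubb6 (chromosome 18, 60943375 to 60954418) ran from 0.57 to 1.65 FPKM in NC (median 0.96) and from 7.97 to 21.95 in CKD (median 13.9), a log2 change of 2.90 ± 0.22 (adjusted p = 2.1e-08), and Tubb5 rose from a mean of 29.3 to 140. The myosins and tropomyosins divided, with 11 higher and 12 lower of 30 (median -0.15, and 0.28 under TPM scaling). Tpm1 rose from 18 to 22.6 FPKM (median 21.2) to 57.3 to 114 (median 65.2), by 1.76 ± 0.15, Tpm4 from a mean of 58.4 to 162, and Myo1f, a myosin of neutrophils and macrophages, from 1.59 to 10.18. The microvillar and stereociliary myosins Myo7a (10.8 to 3.85 FPKM) and Myo3b (5.18 to 0.77) fell. Kinesins gave 8 higher and 6 lower of 22, of which 5 passed the filter only through libraries of adenine-treated rats; the mitotic Kif23 (1.14 to 3.46 FPKM) and Kif2c (0.40 to 1.70) rose.

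Tetraspanins and galectins held more members that rose than fell. Of 22 tetraspanins 12 were higher and 3 lower (median 0.33), led by Cd53, found on leukocytes, from 2.42 to 8.14 FPKM (median 3.995) to 29.4 to 47.6 (median 38.1), by 2.79 ± 0.21 (adjusted p = 2.0e-08), and Cd37, from a mean of 2.29 to 11.0. Of 7 galectins, lectins that bind galactosides, 5 were higher and 2 lower (none lower without NC 2 and 1 without NC 3, NC 4, NC 5, NC 6 or any CKD library but CKD 1). Lgals3 ran from 4.92 to 8.55 FPKM in NC (median 5.72) and from 74.8 to 308 in CKD (median 126), a log2 change of 4.23 ± 0.32 (adjusted p = 2.4e-08), and Lgals1 from a mean of 7.82 to 105. The highest CKD values of Capg (119 FPKM) and Lgals3 (308 FPKM) were both in CKD 5. Without CKD 2 and CKD 5 the log2 changes of Capg and Lgals3 were 3.90 and 3.90.

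The letters GAGGAAGT, a run within the PU.1 site, stood on either strand in 2.67% of the 8762 promoter windows, in 5.07% of those of genes called higher by more than 1 (41 of 808) and in 1.36% of those called lower by more than 1 (7 of 514). The interferon response letters GAAACTGAA stood in 0.491%, 1.61% (13 of 808) and 0.195% (1 of 514). The AP-1 letters TGACTCA stood in 3.38%, 5.82% and 3.89%. The windows of 3 genes named above are shown on the gene's strand, with the PU.1 run in capitals.
Arpc1b promoter, GRCr8 chr12:14609471-14609530, minus strand, run on the gene strand: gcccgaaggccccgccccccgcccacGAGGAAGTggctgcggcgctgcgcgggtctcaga
Cd53 promoter, GRCr8 chr2:197087909-197087968, minus strand, run on the other strand: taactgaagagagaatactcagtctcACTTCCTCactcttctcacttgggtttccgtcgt
Cd37 promoter, GRCr8 chr1:104860830-104860889, minus strand, run on the other strand: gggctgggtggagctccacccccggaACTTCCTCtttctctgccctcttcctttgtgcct
Here too a match is a run of letters, and it does not show which factor, if any, binds there. Most promoters of genes that rose lacked this run. A total of 17 such runs were counted, and the shares carry no test.

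Most tested RGS proteins rose. Of 11 tested RGS proteins, which shut off G proteins, 10 were higher and none lower (median 1.48), and 3 passed the filter only through libraries of adenine-treated rats. Rgs16 ran from 0.08 to 0.78 FPKM in NC (median 0.35) and from 5.20 to 17.3 in CKD (median 6.66), a log2 change of 2.63 ± 0.22 (adjusted p = 6.9e-08), and Rgs18, of platelets and blood cells, rose from a mean of 1.27 to 9.57. Orphan and adhesion receptors gave 15 higher and 6 lower of 32, with Gpr153 rising from a mean of 0.38 to 4.70 FPKM and Adgrf5, an endothelial and intercalated cell receptor, falling from 33.4 to 11.7. Among 24 adenylate cyclases and phosphodiesterases 10 were lower and 5 higher (median -0.35): Adcy1 fell from a mean of 6.69 to 1.51 FPKM and Adcy7, of blood cells, rose from 0.53 to 3.85. Of 15 Eph receptors and ephrins 5 rose and none fell (median -0.01, and 0.43 under TPM scaling), with Ephb6 going from 0.13 to 0.38 FPKM (median 0.25) to 2.36 to 8.93 (median 4.70) and Efna2 from a mean of 0.22 to 1.97. Ephb6 and Efna2 were among 3 of the 15 that passed the filter only through libraries of adenine-treated rats. The plexin Plxnc1 rose from a mean of 0.37 to 3.01 FPKM, the Notch-modifying fringe Lfng from 3.91 to 11.9 and the phosphatase Dusp4 from 0.87 to 2.96, while Dusp15 fell from 13.8 to 2.65.

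Of the binding proteins of insulin-like growth factors, Igfbp5 fell, Igfbp6 rose and Igfbp4 was not called (log2 change 0.22, adjusted p = 0.289). Igfbp5 ran from 181 to 273 FPKM in NC (median 238) and from 34.7 to 118 in CKD (median 72.7), a log2 change of -1.70 ± 0.27 (adjusted p = 4.8e-05). Igfbp6 ran from 0 to 1.04 FPKM in NC (median 0.59) and from 4.45 to 15.6 in CKD (median 7.89), a log2 change of 2.60 ± 0.26 (adjusted p = 3.3e-07). Over the 14 tested genes of the axis, 4 were higher and 6 lower (median -0.16, and 0.19 under TPM scaling); without CKD 5 alone 3 were lower, and without CKD 2 and CKD 5 2 were higher.

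Inducible proteasome subunits and nucleolar genes rose within the machinery of proteins and RNA. Of 43 proteasome subunits, which cut ubiquitin-tagged proteins, 10 were higher and 3 lower (median 0.20). This count moved with the libraries: 16 were higher without CKD 4, 6 without CKD 2 and CKD 5, and 38 under TPM scaling. The 3 catalytic subunits of the immunoproteasome, the form induced by interferon for antigen presentation, rose. Psmb8 (chromosome 20, 4652159 to 4655283) ran from 6.38 to 11.1 FPKM in NC (median 7.44) and from 27.7 to 104 in CKD (median 47.2), a log2 change of 2.49 ± 0.26 (adjusted p = 4.8e-07), Psmb9 rose from a mean of 3.66 to 20.2 and Psmb10 from 3.30 to 24.4. The constitutive counterparts stood at 77.9 and 102 FPKM (Psmb5), 70.3 and 95.2 (Psmb6) and 75.6 and 84.2 (Psmb7) in NC and CKD. Of the activator caps, Psme1 rose from a mean of 70.8 to 140 FPKM and Psme3, the nuclear cap, fell from 114 to 166 FPKM (median 126) to 28.7 to 79.1 (median 47.9), by 1.47 ± 0.23.

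Of 30 nucleolar and ribosome assembly genes 18 were higher and 1 lower (median 0.32), with Npm1 rising from 42.8 to 54.0 FPKM (median 48.5) to 73.0 to 123.4 (median 90.4), by 0.96 ± 0.12 (adjusted p = 4.8e-06), and Nop58 from a mean of 5.58 to 9.34. Of 12 histone genes 9 were higher and none lower (median 0.57). Translation initiation factors gave 17 higher and 8 lower of 48 (median 0.17); 11 and 4 were called without CKD 2 and CKD 5, 3 were lower without CKD 5 alone, 4 each without NC 1, NC 3 or NC 5 and 5 without NC 4. Eif4ebp1, the translation repressor controlled by mTOR, rose from 0.70 to 2.09 FPKM (median 1.34) to 3.17 to 14.2 (median 6.13), by 1.68 ± 0.24 (adjusted p = 1.6e-05), and its paralog Eif4ebp2 went from a mean of 52.1 to 29.6, a change that did not pass the test under TPM scaling (-0.47) or without CKD 2 and CKD 5 (-0.49). Of 29 hnRNP and SR splicing factors 8 were higher and none lower (5 higher and 1 lower without CKD 2 and CKD 5), led by Hnrnpa1 (42.5 to 85.6 FPKM). Helicases of the DEAD and DExH type gave 10 higher and 6 lower of 44 (median -0.01, and 0.36 under TPM scaling), while Ddx39a rose from a mean of 7.27 to 16.53 FPKM and Ddx19a fell from 68.5 to 28.1. Among 48 chromatin modifiers 8 were higher and 7 lower (11 lower without CKD 4; median -0.13, and 0.25 under TPM scaling). The methyltransferase Ezh2 rose from 2.12 to 3.50 FPKM and the mitochondrial deacetylase Sirt3 fell from 7.94 to 4.18.

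The families of vesicle traffic went different ways. Of 30 core autophagy genes 3 were higher and 12 lower (median -0.20, and 0.20 under TPM scaling; 1 was higher without CKD 2, without CKD 5, without both or without NC 5). Of 23 genes of the translocon and glycosylation complex, which bring proteins into the endoplasmic reticulum, 9 were higher and 1 lower (median 0.18; 4 higher without CKD 2 and CKD 5). Of 68 ESCRT and vacuolar sorting genes 12 were higher and 21 lower (median -0.10, and 0.30 under TPM scaling; 13 lower without CKD 2 and CKD 5). Rab GTPases gave 14 higher and 11 lower of 47 (median 0.02; 31 and 2 under TPM scaling) and COP coats 7 and 7 of 30 (median -0.04, and 0.40 under TPM scaling). Single members still moved far: Rab7b, of macrophage lysosomes, rose from 0 to 0.42 FPKM (median 0.26) to 4.69 to 11.2 (median 6.73), by 2.71 ± 0.21 (adjusted p = 2.5e-08), the endoplasmic reticulum retrieval receptor Kdelr3 from a mean of 1.95 to 13.5, and Rab29 fell from 62.2 to 25.9.

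Lipid and glycan enzymes were mixed. Of 31 phospholipases and acyltransferases 12 were higher and 12 lower (median -0.08, and 0.33 under TPM scaling). Pla2g7, the secreted hydrolase of platelet-activating factor made by macrophages, rose from 1.17 to 2.74 FPKM (median 1.56) to 13.04 to 56.6 (median 20.8), by 3.19 ± 0.31 (adjusted p = 3.0e-07), and Pnpla3 fell from a mean of 14.5 to 5.05. In sphingolipid metabolism 9 were higher and 9 lower of 32 (5 lower without NC 1; median -0.08, and 0.31 under TPM scaling), with the sphingosine kinase Sphk1 rising from 1.45 to 7.49 FPKM and the receptor of its product S1pr2 from 1.01 to 5.71. Of 42 sialyl, galactosyl and GalNAc transferases, which build glycan chains, 16 were higher and 9 lower (median 0.22), and 3 passed the filter only through libraries of adenine-treated rats. B4galnt4 rose from 0.08 to 0.57 FPKM (median 0.17) to 2.71 to 9.39 (median 5.47), by 2.38 ± 0.21, and Galnt6 from a mean of 1.22 to 5.51. Galnt11, which starts mucin-type chains on the endocytic receptor megalin, fell from 169 to 234 FPKM (median 191) to 25.2 to 108 (median 68.5), by 1.72 ± 0.26, and Galnt14 from a mean of 21.5 to 8.73.

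Over the 74 families that do not mark other cell types, 16 had at least 50% of their tested members called lower and 10 at least 50% called higher. The sign of the family median was the same in all scalings for 48 families and changed in 26. Where a family above had 3 or fewer members called in a direction, that count moved by 1 in some cases when a library or CKD 2 with CKD 5 was left out. It moved by 2 for galectins and for core autophagy genes.

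**Figure D4:**
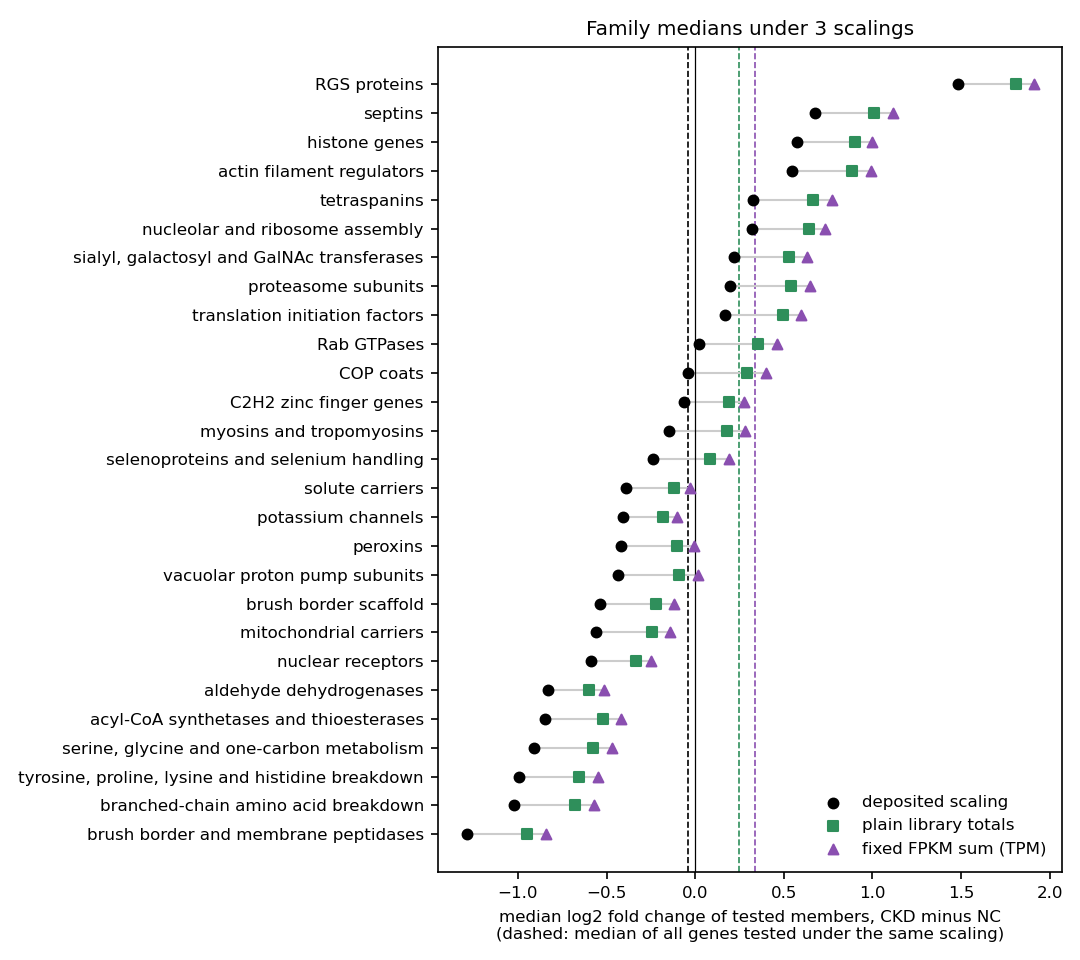
Median log2 fold change of the tested members of 27 families under the deposited scaling (circles), plain library totals (squares) and a fixed FPKM sum (triangles); dashed lines give the median of all genes under each, -0.04, 0.25 and 0.34. The order of families from peptidases (-1.29) to RGS proteins (1.48) is similar, while families near the middle, such as COP coats, cross 0.

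Ratios between related genes are free of library scaling apart from the pseudocount. Of 70 pairs chosen with earlier results of these data known, 58 had both genes tested, and the ratio differed between groups in 47 by an exact 2-sided permutation test over the 6 and 6 libraries (81% of the pairs, against which no share of chosen pairs can be read). The smallest p this design allows is 0.0022, reached by each pair given below with ranges apart (0.0035 adjusted over the 58 pairs). In 17 pairs the members were called in opposite directions.

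Cytosolic Bcat1 closed on mitochondrial Bcat2, though Bcat1, like Mthfd2, passed the filter only through libraries of adenine-treated rats. The ratio of Bcat2 to Bcat1 ran from 26.2 to 34.8 in NC and from 1.67 to 5.12 in CKD. The ratio of the cytosolic folate enzyme Mthfd1 to mitochondrial Mthfd2 ran from 35.6 to 49.9 in NC and from 2.70 to 16.1 in CKD. The retinal dehydrogenases Aldh1a1 and Aldh1a2 stood at a ratio of 47.7 to 73.7 in NC and 3.79 to 31.1 in CKD. These 3 ratios did not overlap between groups and fell by 3.57, 2.63 and 2.65 on the log2 scale.

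The mean log2 ratio changed sign in 9 of the 47 called pairs, so that the other member led. Muscle-type phosphofructokinase Pfkm exceeded platelet-type Pfkp in NC (ratio 1.33 to 2.43), and Pfkp led in 5 of 6 CKD libraries (ratio 0.55 to 1.27). Klf15 exceeded Klf6 in NC (1.72 to 5.18), and Klf6 led in CKD (0.18 to 1.06) except in CKD 1. Lgals8 exceeded Lgals3 in NC (3.44 to 6.02) and Lgals3 exceeded Lgals8 in all CKD libraries (0.07 to 0.39). Psme3 exceeded Psme1 in NC (1.44 to 3.03) and lay below it in all CKD libraries (0.16 to 0.57). The endosomal chloride exchanger Clcn5 exceeded the lysosomal Clcn7 in NC (1.21 to 1.81) and lay below it in CKD (0.11 to 0.86). In CKD 2 and CKD 5, which read long genes lower, this log2 ratio was -2.73 and -3.13. In the other CKD libraries it ran from -0.95 to -0.22. Igfbp5 exceeded Igfbp4 in NC (ratio of Igfbp4 to Igfbp5 0.28 to 0.45), and Igfbp4 led in CKD except in CKD 1 (0.59 to 3.39).

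In the proteasome, the ratio of each constitutive catalytic subunit to its inducible counterpart fell without overlap. Psmb5 to Psmb8 went from 6.44 to 10.9 in NC to 1.46 to 3.24 in CKD, Psmb6 to Psmb9 from 10.1 to 22.5 to 3.27 to 8.73, and Psmb7 to Psmb10 from 11.7 to 23.7 to 2.43 to 6.95. The constitutive subunit was the more abundant in every library. Further shifts were those of tubulins, with Tubb4b to Tubb6 at 32.3 to 62.0 in NC and 3.36 to 10.4 in CKD, of nonmuscle myosins, with Myh10 to Myh9 at 0.20 to 0.26 and 0.07 to 0.12, of amino acid carriers, with Slc7a8 to Slc7a5 at 10.3 to 28.7 and 1.28 to 7.31, and of the histone deacetylases Hdac11 and Hdac1, at 0.27 to 0.59 and 0.13 to 0.26. The mineralocorticoid to glucocorticoid receptor ratio, Nr3c2 to Nr3c1, ran from 0.72 to 1.32 in NC and 0.42 to 0.53 in CKD. The intercalated cell proton pump subunit Atp6v1b1 lost ground to the widespread Atp6v1b2, from 0.31 to 0.73 in NC to 0.12 to 0.26 in CKD.

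The ratio of Hnf4a to Hnf4g did not pass the test. It ran from 7.92 to 10.8 in NC and from 7.96 to 18.3 in CKD (difference 0.17 on the log2 scale, exact permutation p = 0.54). CKD 5 alone lay above the NC range. The ratio of Tpm1 to Tpm4, one of the 47, rose by 0.31 on the log2 scale with overlapping ranges (0.34 to 0.39 in NC and 0.39 to 0.55 in CKD, exact permutation p = 0.0043).

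**Figure D5:**
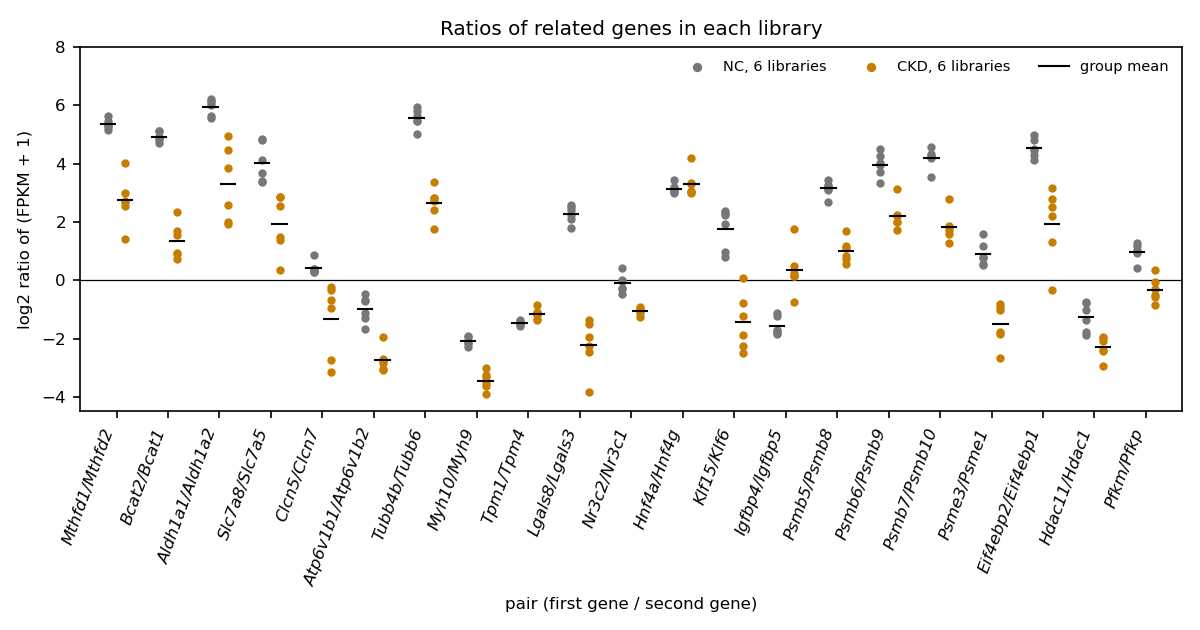
Log2 ratio of (FPKM + 1) between the members of 21 pairs in each of the 6 NC (grey) and 6 CKD (orange) libraries, with black bars at group means and a line at equal levels. The ratio of Bcat2 to Bcat1 lies above 4.5 in NC and below 2.5 in CKD, while the Hnf4a to Hnf4g values of the 2 groups overlap except for CKD 5, at 4.196 against at most 3.428 in NC.

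Markers of other cells gave the following. The 3 T cell markers found summed to 1.04 to 2.73 FPKM in NC and 4.66 to 14.7 in CKD, with all 3 higher. B and plasma cell markers summed to 2.10 to 16.2 FPKM and 11.5 to 54.0, and neutrophil markers to 0.61 to 7.04 and 4.75 to 23.5. Lymphatic endothelial markers summed to 9.54 to 15.5 FPKM in NC and 15.7 to 29.2 in CKD, and Lyve1 rose from a mean of 2.78 to 6.34. Schwann cell and neuron markers summed to 0.75 to 2.12 FPKM and 3.99 to 25.9, carried by Uchl1 (0.89 to 9.67 FPKM on average), while Th was under 0.1 in all 12 libraries; Uchl1 was the only one of these 5 markers that passed the filter. The complement factor Cfd and the fatty acid binding protein Fabp4, both abundant in fat and also made by macrophages, rose from a mean of 0.47 to 20.5 FPKM and from 1.23 to 24.5. Urothelial markers summed to at most 0.70 FPKM, skeletal muscle markers to at most 1.30, and the adrenal enzymes Cyp11b1 and Cyp11b2 were under 0.1 in all 12 libraries.

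The classes of transcript differed. Of 433 long non-coding RNAs 124 were lower and 56 higher (median -0.13). Of 546 loci with no annotation 257 were lower and 40 higher (median -0.49). Of 104 small nucleolar RNAs 6 were lower and 9 higher, of 70 pseudogenes 11 and 14, and of 25 small nuclear RNAs 4 and none. Of 31 genes of the mitochondrial chromosome, which include protein-coding ones, 21 were lower and none higher (median -1.28). Gene length moved with the change: the median log2 change ran from 0.05 in the shortest class of 5 by gene length to -0.17 in the longest, and from -0.05 to -0.06 without CKD 2 and CKD 5.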

How the data were processed

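Whole-kidney RNA of NC and CKD rats, 6 libraries each, was compared. The authors deposited FPKM values per gene; HISAT2 2.0.5 and the build mRatBN7.2 are named per the submitters' processing notes, while the sources used here do not give the counting program, the strand setting or the annotation release, so overlapping, antisense and near-identical genes are uncertain. Multiplied by gene length, the values of each library fell on whole numbers of a single unit (tolerance 0.01), which gave back the reads per gene used for depth and for voom. The deposited scaling divided by sizes that were 0.90 (NC) and 1.14 (CKD) times these totals on average.

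limma 3.58.1 (R 4.3.3) was run on log2(FPKM + 1) with an intensity trend, in 1 fit of 3 group means over 18 libraries, 2-sided, with Benjamini-Hochberg adjustment over 13851 genes and a call at an adjusted p under 0.05. Adjusted p-values printed for genes are those of limma. Fold changes on this scale understate the change of low genes. Pair ratios were put to an exact permutation test in SciPy 1.17.1. Since the labels do not name separate animals, p-values reflect only how far these libraries differ, and that difference may be technical. Values per gene are means, or the lowest, median and highest, of 6 libraries.

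The gene families (82 lists by symbol), the 70 pairs, the 17 promoter runs and the tests were chosen with earlier results of these data known, so no p is given for a list, and the shares over all genes are given once, before the family counts. Named genes followed a rule: the 10 highest and 10 lowest log2 changes with ranges apart, up to 2 called members per family and direction with the smallest adjusted p and ranges apart, the 10 most abundant genes per group, up to 5 switched genes and both genes of each pair. Arpc1b, Dio3, Esr1, Gldc, Hao2, Kap, Mgp, Miox, Pdzk1, Slc25a25, Thrb and Tmem59l lie outside it and were chosen after their values were seen, as were the promoters shown. Gene names came from the deposited table; promoter sequences came from RefSeq (GRCr8), matched by symbol.

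The alternatives were a pseudocount of 0.1, no low-value filter, a mean FPKM of at least 5, TPM scaling, plain library totals, scaling without the 20 most abundant genes, a fit of 12 libraries, no trend, voom on recovered reads, replicate number as a block, a lowess length correction (span 0.3), leaving out CKD 2 with CKD 5, and leaving out each library. Simulated data over 13851 genes held 50 genes changed 1.5-fold, 50 changed 2-fold, 50 changed 4-fold and 50 changed 0.5-fold. The fit recovered 28, 44, 47 and 34 of these, in that order, with 4 false calls. Every group was simulated with the spread of the NC libraries and with no effect of gene length. The CKD libraries spread more (median log2 SD 0.31 against 0.16 in NC, genes with a mean of at least 5 FPKM). Recovery and false calls at that spread were not tested. In the NC and CKD libraries 6973 genes were called, and recovery with that many changed genes was not tested.

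A few genes and families, and the results that need them, are not reported here.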

Additional observations from a re-analysis of the deposited data

Results flagged for a closer look

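In 16 genes and on the first principal component, 1 of 6 libraries stood apart from the 5 others of its group by Dixon's criterion; 354 groups were checked, and chance alone marks about 1 in 20. NC 2 was the library in 7 genes, with Dio3 at 0.221 FPKM, Psmb10 at 5.48, S1pr2 at 1.86 and Sox4 at 4.19 above the other NC libraries, and Esrrb at 1.88, Hgd at 165 and Hnf4g at 16.2 below them. NC 2 also stood apart on the first principal component (-34.8), on the side of the CKD libraries. In NC 5, Sox11 was at 0.587 FPKM, above the others, and Foxs1 at 1.67, below them. In NC 4, Rgs18 was low at 0.467 FPKM and Tmem59l was the one NC value above 0, at 0.0419. CKD 5 was highest for Capg (119 FPKM), Clic1 (133) and Mgp (2820). CKD 1 was nearest to NC for Lfng (5.65 FPKM) and Slc52a3 (4.49).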

How the results depend on the processing

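The count of 6973 called genes ranged from 6372 (without CKD 5) to 7272 (without CKD 1) when 1 library was left out, and the 47 called pair ratios from 44 to 49. With a mean FPKM of at least 5, 4447 of 8491 genes were called. The other alternatives kept the count within 1.5 times, from 6157 without CKD 2 and CKD 5 to 8089 of 23814 with no low-value filter, with 6842 by voom. A like count did not mean the same genes. Of the 6973 calls, 4659 were kept with the same sign under TPM scaling and 5107 with plain totals. Scaling without the 20 most abundant genes kept 5901, and leaving out CKD 2 and CKD 5 kept 5662. Scaling changed the direction: the share of calls that were higher was 48.4% as deposited, 62.3% when the 20 most abundant genes were kept out of the scaling, 77.6% with plain totals and 83.7% with TPM. Among genes named, Fmnl1 took the other sign under TPM scaling (0.0241). The ratio of Hnf4a to Hnf4g, not called, took the other sign without CKD 5 (-0.0109) and without CKD 2 and CKD 5 (-0.0587). The causes were not tested.

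For NC and CKD libraries with the same replicate number, the correlations of deviations were 0.07, 0.08, -0.05, -0.05, -0.04 and 0.23. Those of libraries with different numbers ran from -0.36 to 0.22. With so few values, these correlations cannot decide whether the numbers pair libraries. With the replicate block 6636 genes and 45 pair ratios were called, and Tpm1 to Tpm4 (0.31) did not pass. Of 168 genes examined singly, 160 kept sign and call in all alternatives that held them. With a mean FPKM of at least 5, 119 of the 168 entered. Most of the 168 were chosen by their calls and ranges in these same libraries, so this count does not describe called genes in general. FPKM below about 1 rests on few reads at this depth.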
